A study of Bos taurus with 16 samples.

Results

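The genes described here encode 7 subunits of the octamer at the core of eukaryotic translation initiation factor 3 (EIF3): EIF3A (ENSBTAG00000002528), EIF3E (ENSBTAG00000006702), EIF3K (ENSBTAG00000011212), EIF3L (ENSBTAG00000010790), EIF3M (ENSBTAG00000005338), EIF3F (ENSBTAG00000004861) and EIF3H (ENSBTAG00000014032). They were chosen by name, because they form 1 structural unit, and not by a measured value, although earlier results of these data were known. All 7 were matched by gene identifier among the 27607 gene IDs of the count table. EIF3C, the remaining subunit of the octamer, was not analysed here, since no table used here gives its ID.

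EIF3 is the largest of the initiation factors. It binds the small ribosomal subunit, helps to bring in the initiator tRNA and the mRNA, and keeps the large ribosomal subunit from joining too early. The octamer is built from subunits with a PCI domain, a helical scaffold by which EIF3A, EIF3C, EIF3E, EIF3K, EIF3L and EIF3M hold together, and from EIF3F and EIF3H, which carry an MPN domain. The lid of the proteasome and the COP9 signalosome share this architecture. EIF3B, EIF3D, EIF3G, EIF3I and EIF3J lie at the periphery of the complex.

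RNA came from the right lobe of the liver and the semitendinosus muscle of 8 male Holstein calves. In 4 calves the embryo had been produced in vitro (IVP), from oocytes collected by ovum pick-up after a mild hormonal stimulation of the donor. The oocytes were then matured, fertilized and cultured in defined media. In the other 4 calves the embryo had developed in a superovulated donor and was collected and transferred (multiple ovulation and embryo transfer, MOET). Each calf gave 1 library per organ, 16 in all, with 22758137 to 24667728 counts in liver and 23677247 to 25626474 in muscle. All embryos were transferred fresh to recipients, and the calves were raised in similar conditions and were 98 to 104 days old, except MOET calf 3213, which was 144 days old. All IVP calves had the same dam and 2 sires. The MOET calves had 2 dams and 3 sires, and only MOET calves 3217 and 3218 were full siblings of IVP calves (3208 and 3209), so outside these 4 calves embryo origin and parents cannot be told apart.

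The authors had adjusted the counts for age. After that adjustment the median gene of calf 3213 deviated from the mean of the 3 other calves of its group by 0.022 (liver) and 0.014 (muscle) on the log2 scale, below the 0.044 and 0.047 expected from counting alone. It was therefore not treated as a separate replicate, and means ± SD cover 4 IVP calves and 3 MOET calves. Marker genes that could be named matched the labelled organs. APOA1, APOB and TTR of hepatocytes summed to 5902 CPM (counts scaled to library size) or more in each liver of these 7 calves and to at most 34.4 in muscle, and 4 genes of muscle fibres (MYH2, MYH7, TNNT3 and ACTA1) to at least 114200 in muscle and at most 0.69 in liver.

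In liver the point estimates of all 7 subunits were higher in IVP than in MOET calves (that of EIF3L was below 0 with library totals alone, in the full siblings and without calf 5841), but none passed the false discovery rate (FDR) of 0.05 in edgeR's quasi-likelihood test. At that threshold 0.035% of all 14290 genes tested were called. EIF3K, EIF3M, EIF3F and EIF3H had an unadjusted p under 0.05, as did 14.8% of all genes in the same direction. These 4 subunits were also the ones whose 4 IVP calves all lay above the 3 MOET calves in CPM scaled by TMM, the scaling used here, which corrects library totals for composition. Of all genes tested, 16.3% showed this separation. The median log2 fold change of the 7 was 0.38, against -0.0040 over all genes, with quartiles at -0.33 and 0.30. DESeq2 with the same age term called 1 of the 7, EIF3M, at an FDR of 0.049, and 10.6% of all genes.

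EIF3K, a small PCI subunit that pairs with EIF3L at one end of the scaffold, had the largest liver estimate. Its CPM was 60.5, 78.1, 78.5 and 136 in IVP calves 3208, 3209, 5833 and 5841, and 50.2, 54.6 and 50.4 in MOET calves 3217, 3218 and 5932. The MOET calves lay close together and the IVP calves were spread over a range from 60.5 to 136. The means were 88.3 ± 33.1 (SD, n = 4) and 51.7 ± 2.48 (SD, n = 3), and the log2 fold change was 0.73 (SE 0.26, FDR 0.13). MOET calf 3213 had 50.9 CPM.

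EIF3M, another PCI subunit, was likewise lowest in calf 3208 and highest in calf 5841 among the IVP calves. It reached 78.2, 99.4, 99.3 and 158 CPM in IVP livers, in the order given for EIF3K, and 67.5, 66.4 and 65.3 in MOET livers. Here too the lowest IVP value, that of calf 3208, was above the highest MOET value. The log2 fold change was 0.68 (SE 0.22, FDR 0.13). In the RefSeq annotation EIF3M overlaps another protein-coding gene, CCDC73, and in libraries without strand the reads of the overlap cannot be told apart. The span of EIF3A holds 2 snoRNA genes, and the other 5 subunits overlap no gene there.

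EIF3F and EIF3H form the MPN pair, and EIF3F is known as a target of the atrophy ubiquitin ligase MAFbx in muscle. Liver EIF3F stood at 88.1, 117, 105 and 160 CPM in IVP livers and at 79.0, 77.2 and 83.6 in MOET livers (log2 fold change 0.54, SE 0.20, FDR 0.13). Liver EIF3H was 75.2, 83.6, 83.5 and 99.6 CPM in IVP livers and 69.5, 65.7 and 60.1 in MOET livers (log2 fold change 0.38, SE 0.13, FDR 0.13). Both genes separated the groups, and the lowest IVP calf, 3208, lay near the highest MOET calf. When CPM was taken from the library totals alone, EIF3F overlapped, with 88.3 CPM in IVP calf 3208 against 94.0 in MOET calf 5932, while EIF3K, EIF3M and EIF3H remained apart.

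For EIF3A, EIF3E and EIF3L, the liver values of the groups overlapped. EIF3A, the large scaffold subunit on which the complex assembles, had 99.3, 94.5, 103 and 161 CPM in IVP livers and 92.9, 101 and 98.7 in MOET livers. Its log2 fold change of 0.21 (SE 0.20, FDR 0.48) rested on calf 5841 and was 0.025 without it. EIF3E, also known as INT6, lay between 119 and 170 CPM in IVP calves and between 105 and 120 in MOET calves (log2 fold change 0.32, SE 0.15, FDR 0.18). EIF3L had the smallest estimate, 0.05 with a 95% interval from -0.22 to 0.31 (FDR 0.80), and it turned to -0.12 when libraries were scaled by their totals alone. That scaling moved the median liver fold change of all genes by -0.16.

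IVP calf 5841 had the highest liver CPM of the IVP group for each of the 7 subunits, and it was singled out after these values were seen. The 3 other IVP calves still lay above the 3 MOET calves for EIF3K (60.5 to 78.5 CPM), EIF3M (78.2 to 99.4), EIF3F (88.1 to 117) and EIF3H (75.2 to 83.6). Without calf 5841 the liver log2 fold changes were 0.49 for EIF3K and 0.48 for EIF3M, with an FDR of 0.044 and 0.042, and 8.41% of all genes were called. Leaving out calf 3213 with the age term kept, over calves of 98 to 104 days, gave 0.56 for EIF3K (FDR 0.034), 0.54 for EIF3M (FDR 0.032) and 0.33 for EIF3H (FDR 0.0497), where 15.2% of all genes were called. In that fit calf 5841 was 98 days old and all others were 102 to 104 days old. The age term therefore rested largely on calf 5841, and this setting is not separate from leaving calf 5841 out. Leaving out both calf 3213 and the age term called no subunit in edgeR (FDR 0.11 for EIF3K) and 5 of 14416 genes. Without any other calf no subunit was called, and the FDR of EIF3K, EIF3M, EIF3F and EIF3H was as high as 0.38 (without MOET calf 3217). With all calves and no age term, where calf 3213 counts as a replicate of its own, 4 of the 7 were called in edgeR, as were 21% of all genes, and 5 in DESeq2, as were 29.8%. EIF3A and EIF3L were called in neither.

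Within the 4 full siblings, the liver CPM of EIF3K was 60.5 and 78.1 in IVP calves 3208 and 3209 and 50.2 and 54.6 in MOET calves 3217 and 3218. The log2 fold changes within this family were 0.40 for EIF3K, 0.41 for EIF3M, 0.40 for EIF3F, 0.23 for EIF3H, 0.20 for EIF3E, 0.0025 for EIF3A and -0.019 for EIF3L. With 2 calves a group none of them passed the test, the lowest FDR being 0.26 for EIF3M.

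**Figure D1:**
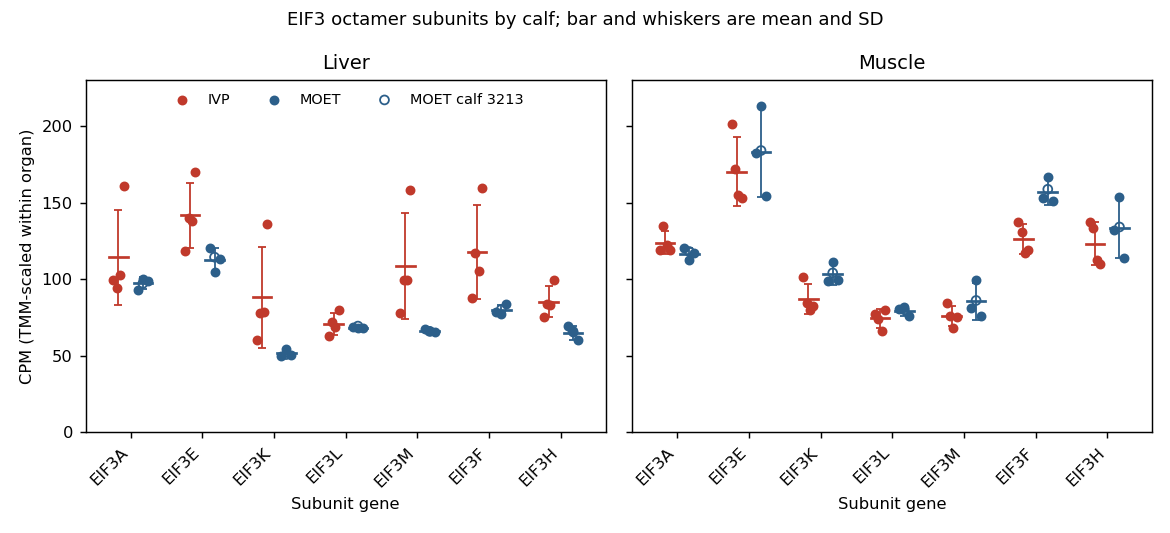
CPM (TMM-scaled within each organ, linear axis from 0) of the 7 octamer subunits by calf, in liver on the left and muscle on the right. Filled points are IVP calves (red) and MOET calves (blue), the open point is MOET calf 3213, and bars with whiskers are mean ± SD over 4 IVP and 3 MOET calves. In liver the IVP points of EIF3K, EIF3M, EIF3F and EIF3H all lie above the MOET points, and in muscle those of EIF3F lie below.

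In muscle most estimates pointed the other way, and all but that of EIF3L were smaller in size than in liver. They were negative for 6 subunits and positive for EIF3A, with a median of -0.11 against 0.02 over all genes. None of the 7 passed the FDR of 0.05 in edgeR, where 0.467% of 12854 genes did, and DESeq2 with the age term called none of them either. EIF3F alone had an unadjusted p under 0.05, against 8.43% of all genes in the direction of lower values in IVP calves.

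EIF3F was also the one subunit whose muscle values did not overlap between the groups, a separation that 8.66% of all genes showed in that direction. It stood at 138, 131, 117 and 119 CPM in the muscle of IVP calves 3208, 3209, 5833 and 5841, and at 153, 167 and 151 in MOET calves 3217, 3218 and 5932. The means were 126 ± 9.82 (SD, n = 4) and 157 ± 8.67 (SD, n = 3). The log2 fold change was -0.31 (SE 0.11, FDR 0.16), and it stayed between -0.36 and -0.26 when each calf was left out in turn and was -0.25 in the 4 full siblings. EIF3F was called in 2 of 16 alternatives, edgeR and DESeq2 with all calves and no age term, with an FDR as low as 0.0026. Those fits called 9.13% and 13.3% of all genes, and in them MOET calf 3213 counts as a replicate of its own. With both calf 3213 and the age term left out, EIF3F was not called in edgeR (-0.32, FDR 0.14).

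EIF3K had 101, 84.9, 80.1 and 82.3 CPM in IVP muscle and 98.7, 111 and 99.7 in MOET muscle. IVP calf 3208 alone reached into the MOET range, and the log2 fold change was -0.24 (SE 0.12, FDR 0.27). The remaining estimates were -0.17 for EIF3M, -0.11 for EIF3H, -0.10 for EIF3E, -0.10 for EIF3L and 0.09 for EIF3A, each with a 95% interval that included 0 and an FDR between 0.45 and 0.72. Without MOET calf 3218, which had the highest muscle CPM of EIF3E (213) and EIF3H (154), the estimates of these genes were 0.022 and 0.0090.

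**Figure D2:**
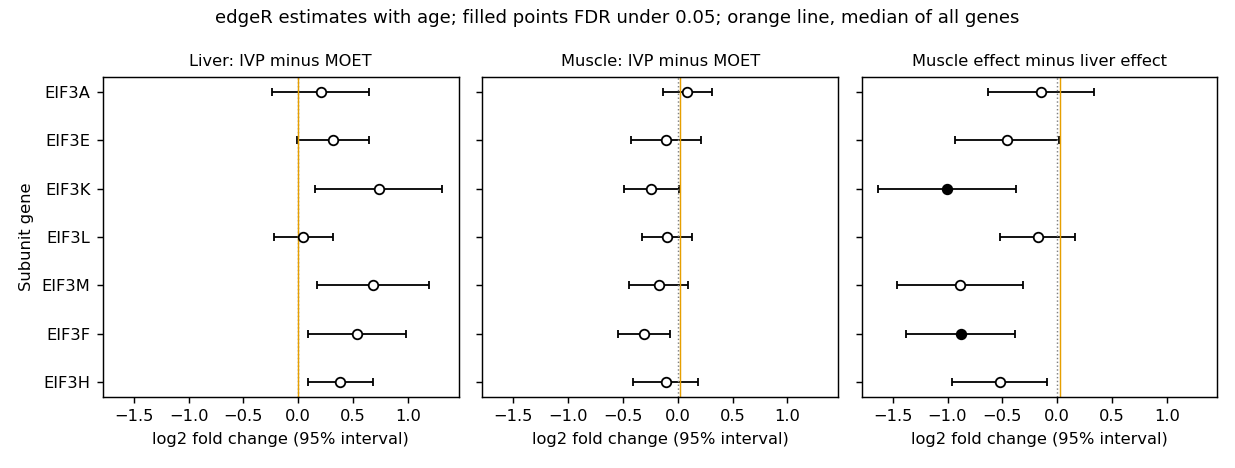
Log2 fold change of each subunit with its 95% interval from edgeR with age as covariate, for IVP minus MOET in liver, IVP minus MOET in muscle, and the muscle effect minus the liver effect. Filled points have an FDR under 0.05, which only EIF3K and EIF3F reach and only in the right panel, the dotted line is 0 and the orange line is the median of all genes.

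The IVP minus MOET difference was then compared between the organs in 1 fit over the 16 libraries. All 7 differences, muscle effect minus liver effect, were negative with TMM, and those of EIF3A and EIF3L turned positive with library totals. EIF3F (-0.88, SE 0.23, FDR 0.039) and EIF3K (-1.01, SE 0.29, FDR 0.047) passed the test, as did 8.99% of 15237 genes. EIF3M followed at -0.89 (SE 0.27, FDR 0.052) and EIF3H at -0.52 (SE 0.20, FDR 0.10). The other estimates were -0.45 for EIF3E, -0.18 for EIF3L and -0.15 for EIF3A, with 95% intervals that included 0.

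Both calls were close to the threshold. Each calf gave both organs, and when it entered the fit as a block the FDR was 0.066 for EIF3F and 0.070 for EIF3K, no subunit was called, and the share of all genes called was 4.68%. No subunit was called without any one of IVP calves 3209 and 5833 or MOET calves 3217, 3218 and 5932, where the FDR of EIF3F lay between 0.066 and 0.18 and that of EIF3K between 0.080 and 0.19. EIF3F and EIF3K were each called in 8 of 15 alternatives and EIF3M in 7. Scaling by library totals alone moved the median difference of all genes by 0.22, gave EIF3F -0.64 (FDR 0.062) and EIF3K -0.77 (FDR 0.066), and EIF3A and EIF3L 0.083 and 0.050. Among all genes called, 722 differences were positive and 648 negative with TMM, and 840 and 187 with library totals.

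**Figure D3:**
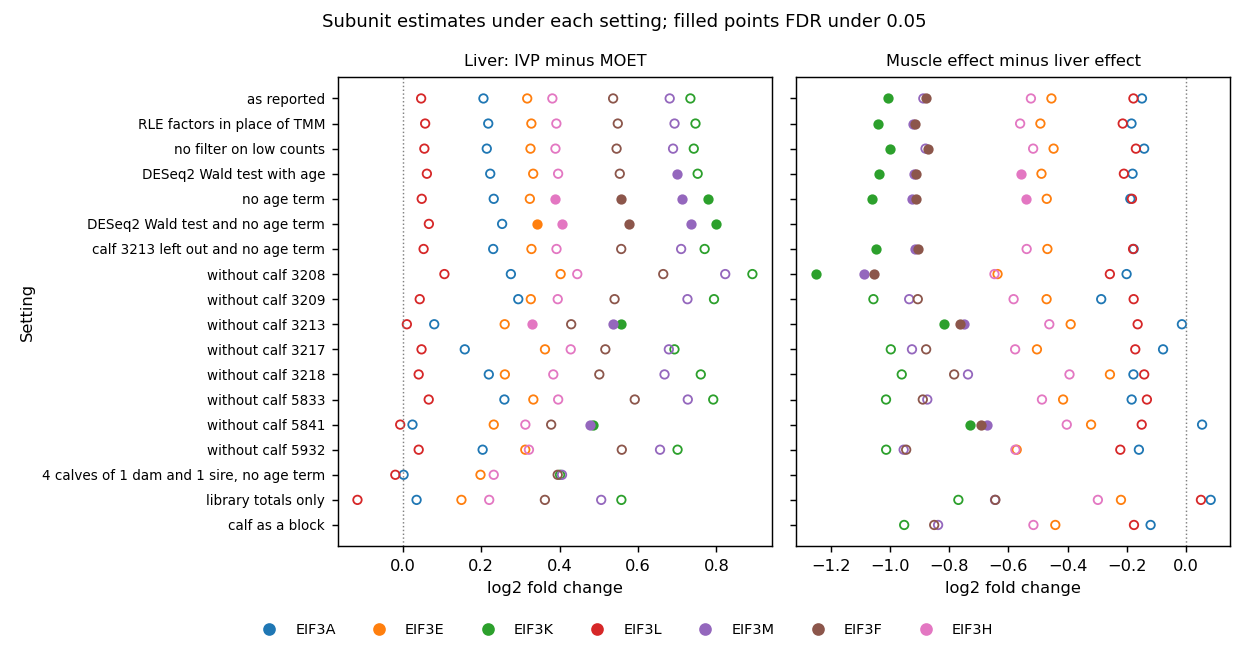
Estimates of the 7 subunits under each setting, for IVP minus MOET in liver on the left and the muscle effect minus the liver effect on the right, on a log2 axis. Filled points have an FDR under 0.05, and a row without points was not fitted for that panel. EIF3K and EIF3M have the highest liver estimates in each setting (EIF3K between 0.40 and 0.89), while EIF3L stays between -0.12 and 0.11.

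Because the subunits belong to 1 complex, their counts were also set against each other within a library, which does not depend on how libraries are scaled. Counts are not divided by transcript length, so the ratios compare libraries and not the amounts of 2 mRNAs. Per 100 counts of EIF3A, liver had 60.9, 82.6, 76.3 and 84.7 counts of EIF3K in IVP calves 3208, 3209, 5833 and 5841, and 54.0, 54.3 and 51.1 in MOET calves 3217, 3218 and 5932. All IVP calves lay above the MOET calves. Calf 5841 lay near calf 3209 on this ratio, but its EIF3A was itself high, at 161 CPM. Against the mean log2 level of the 7 subunits in the library, EIF3K of calf 5841 was still the highest. It was at 0.031, against -0.43, -0.29 and -0.27 in calves 3208, 3209 and 5833. The means were 76.1 ± 10.8 (SD, n = 4) and 53.1 ± 1.81 (SD, n = 3).

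The same separation was seen for EIF3M, with 94.7 ± 11.3 counts per 100 of EIF3A in IVP calves and 68.3 ± 3.79 in MOET calves. EIF3F also separated the groups (104 ± 14.9 against 82.2 ± 4.67), so that 3 of the 6 ratios did not overlap in liver, as was the case for 9.42% of all genes set against EIF3A. The ratios of EIF3E (127 ± 18.4 against 116 ± 12.6), EIF3H (76.9 ± 11.3 against 67.0 ± 7.16) and EIF3L (64.1 ± 10.9 against 70.3 ± 3.34) overlapped. In muscle the ratio of EIF3F was lower in every IVP calf (115, 97.3, 96.2 and 99.5) than in the MOET calves (127, 148 and 129). This was the only muscle ratio without overlap, and 12.9% of all genes showed the same.

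**Figure D4:**
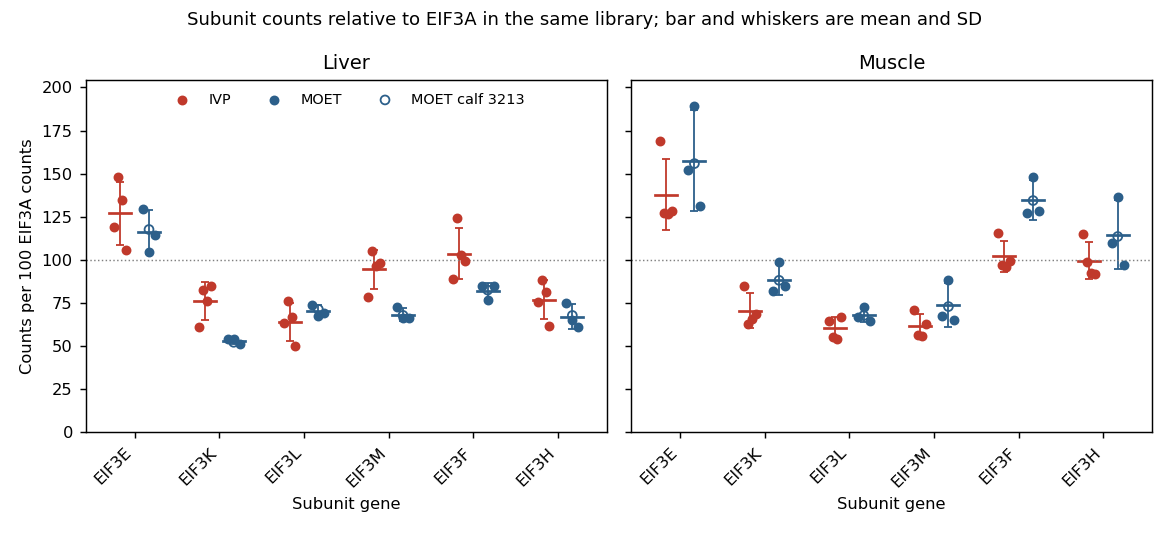
Counts of 6 subunits per 100 counts of EIF3A in the same library (linear axis from 0, dotted line at 100), by calf, in liver on the left and muscle on the right. Colours and bars are as in the plot of CPM by calf, with mean ± SD over 4 IVP and 3 MOET calves. In liver the ratios of EIF3K, EIF3M and EIF3F are higher in every IVP calf, and in muscle that of EIF3F is lower.

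Against the mean log2 CPM of the 7 subunits of the same library, EIF3L had the smallest SD of the 7 in MOET livers (0.0090). That SD covers 3 calves and is below the deviation of 0.044 expected from counting alone for the median liver gene. The closeness of these 3 values is therefore not read as a trait of EIF3L. EIF3L lay at -0.14, -0.14 and -0.12 in MOET calves 3217, 3218 and 5932, and at -0.36, -0.41, -0.46 and -0.74 in IVP calves 3208, 3209, 5833 and 5841. As a share of the summed counts of the 7, EIF3L made up 12.6% ± 0.063 (SD, n = 3) in MOET livers and 9.95% ± 1.13 (SD, n = 4) in IVP livers. EIF3A was also lower relative to the mean in every IVP liver, at 0.17 ± 0.14 against 0.38 ± 0.071. That position, below the MOET calves once the subunit mean is subtracted, was shared by 37% of all genes. EIF3K and EIF3M were higher relative to the mean in every IVP liver, which was the case for 3.28% of all genes, and EIF3F was lower in every IVP muscle (0.24 ± 0.019 against 0.42 ± 0.048), where 2.48% of all genes were. Since the subunits share this mean, a gene that gains share lowers the others. The median estimate of the 7 was 0.38 in liver and -0.11 in muscle. Subtracting their mean therefore shifts all genes the opposite way, and the shares of all genes given here depend on it. In CPM without that subtraction, 16.3% of all genes lay higher in every IVP liver and 8.66% lower in every IVP muscle.

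Between the organs, the 7 subunits had higher TMM-scaled levels in muscle than in liver, which for EIF3M did not hold with library totals. The log2 differences, averaged over both groups, were 1.46 for EIF3H (SE 0.10), 1.21 for EIF3F (SE 0.11), 1.16 for EIF3E (SE 0.11), 1.16 for EIF3K (SE 0.14), 0.86 for EIF3A (SE 0.11), 0.82 for EIF3L (SE 0.077) and 0.60 for EIF3M (SE 0.13). All 7 passed the test with TMM, with the highest FDR, 0.00051, for EIF3M, and 39% of all genes were called higher in muscle. The size of this difference depended on the scaling, since library totals alone moved the median of all genes by -0.67 and called 23.9% of them higher in muscle. On that scale EIF3H (0.78), EIF3F (0.54), EIF3K (0.49) and EIF3E (0.48) passed the test, whereas EIF3A (0.19, FDR 0.084), EIF3L (0.15, FDR 0.088) and EIF3M (-0.073, FDR 0.53) did not. Of all genes called, 46.95% were higher in muscle with TMM and 27.97% with library totals. Fewer cells of a type and less RNA per cell cannot be told apart in these bulk samples.

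**Figure D5:**
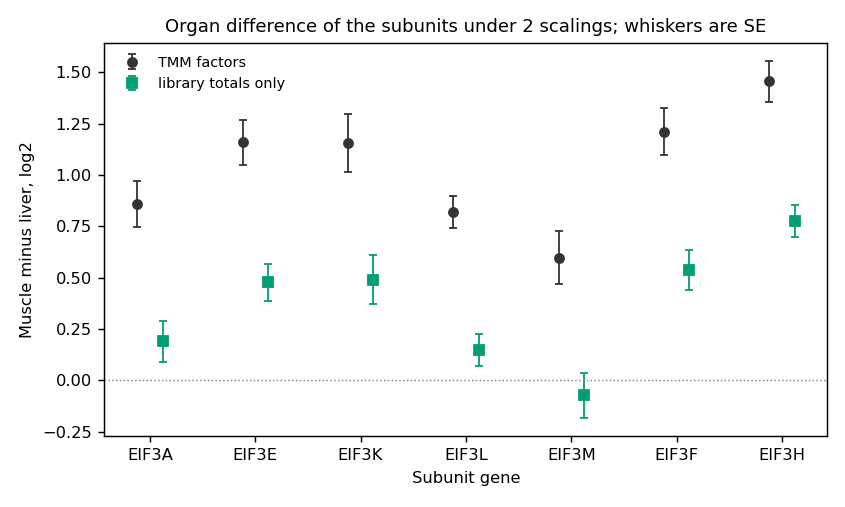
Log2 difference of each subunit between muscle and liver in edgeR, with TMM factors (circles) and with library totals only (squares). Whiskers are SE and the dotted line is 0. The order of the subunits is alike on both scales, with EIF3H highest and EIF3M lowest, while EIF3M crosses 0 with library totals.

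Relative to the mean of the 7, which is free of this scaling, EIF3H was higher in the muscle than in the liver of 7 of 7 calves, by 0.41 ± 0.077 (SD, n = 7) on the log2 scale with a range from 0.31 to 0.52. EIF3M was lower in muscle in 7 of 7 calves, by -0.45 ± 0.18, between -0.69 and -0.19. For the other subunits the direction differed between calves. The muscle minus liver shift of EIF3F was 0.03 ± 0.087 in IVP calves and 0.33 ± 0.020 in MOET calves without overlap, that of EIF3K was -0.06 ± 0.23 and 0.35 ± 0.091, and that of EIF3M was -0.57 ± 0.11 and -0.29 ± 0.087, both also without overlap. In these 3 genes the IVP calves lay below the MOET calves, as they did in 2.8% of all genes tested in both organs. EIF3L separated the groups in the opposite direction (-0.03 ± 0.28 and -0.43 ± 0.066), as did 34.9% of all genes. Both shares depend on the mean of the 7, since the median difference of the effect between the organs was -0.52 for the subunits themselves.

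The profiles of the subunits over the 14 libraries without calf 3213 were compared after each was centred, by the root mean square (RMS) of their log2 difference. EIF3K and EIF3F were the closest pair of the 7, at 0.12, although EIF3K has a PCI and EIF3F an MPN domain. EIF3A and EIF3L were closest to each other at 0.17, EIF3E was closest to EIF3F at 0.15 and EIF3H to EIF3E at 0.16. EIF3M stood farthest from the rest, at 0.28 from EIF3A, its nearest, and 0.46 from EIF3H. Among 2228 named genes with at least 5 CPM in each organ, those most like the mean profile were MAP2K5 (0.074), TCF25 (0.082), SFSWAP (0.083), TNIP1 (0.094) and CHMP4B (0.098), and the median over all 7052 genes at that level was 0.61. These profiles include the difference between the organs.

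The 5 peripheral subunits had liver estimates of the same sign. Their log2 fold changes were 0.95 for EIF3J (SE 0.35), 0.76 for EIF3G (SE 0.24), 0.44 for EIF3D (SE 0.19), 0.39 for EIF3I (SE 0.17) and 0.38 for EIF3B (SE 0.17). None of the 5 passed the FDR of 0.05 in edgeR, with values between 0.13 and 0.16. All 5 had an unadjusted p under 0.05, as did 14.8% of all genes in the same direction. In muscle 4 of the 5 estimates were negative, from -0.26 for EIF3G to -0.07 for EIF3B, and EIF3J was at 0.0025. EIF3G, an RNA-binding subunit, differed between the organs by -1.05 (SE 0.27, FDR 0.037), and the other 4 did not pass that test. It called 8.99% of all genes.

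Of 29 other initiation factors listed, 11 could be named, and 8 of them had a positive and 3 a negative liver estimate, with a median of 0.48. None was called by FDR in edgeR, and 8 had an unadjusted p under 0.05 (5 higher and 3 lower in IVP calves), as had 29.8% of all genes in either direction. In muscle 2 estimates were positive and 9 negative, with a median of -0.065, and 1 of the 11 had an unadjusted p under 0.05, against 19.8% of all genes in either direction. In liver EIF5B, the GTPase of subunit joining, was highest at 1.18 (FDR 0.14), and ABCE1, the recycling ATPase, was lowest at -0.57 (FDR 0.12). The scaffold EIF4G1 had estimates of -0.43 in liver and 0.19 in muscle, and its difference between the organs was 0.59 (FDR 0.049). EIF2S2, a subunit of the factor that carries the initiator tRNA, and EIF4EBP1, the repressor of the cap-binding protein, had differences of -1.60 (FDR 0.041) and -1.43 (FDR 0.038). The 59 cytosolic ribosomal protein genes had a median of 0.85 in liver and -0.27 in muscle. None of the 59 was called in either organ by FDR in edgeR. In liver 59 had an unadjusted p under 0.05, all higher in IVP calves, against 14.8% of all genes in that direction. In muscle 22 did, all lower in IVP calves, against 8.43% of all genes in that direction. For the difference between the organs 39 passed the test, all negative, against 8.99% of all genes in either direction.

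The complexes with the same architecture as the octamer could be named only in part. Of the COP9 signalosome 3 of 9 subunits were named, with liver estimates of 0.56 for COPS6 (FDR 0.14), 0.15 for COPS8 (FDR 0.32) and 0.02 for COPS3 (FDR 0.90). In muscle these were -0.11, -0.24 and -0.09. Of the 9 subunits of the proteasome lid 1 was named, PSMD7, at 0.71 in liver (FDR 0.15) and -0.01 in muscle. The names came from tables of genes selected in part on these libraries. Neither the directions nor the counts of the lists named here, ribosomal proteins included, are therefore independent evidence.

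Sums of markers of several cell types also did not overlap between the groups. The fibroblast genes DCN, COL1A1 and COL3A1 (3 of 4 listed) summed to 438 to 613 CPM in the liver of IVP calves and to 739 to 859 in that of MOET calves, and to 655 to 940 and 1082 to 1532 in muscle. In liver DCN did not follow the other fibroblast genes, with estimates of -0.0010 for DCN (FDR 0.996), -0.55 for COL1A1 and -0.55 for COL3A1. In muscle these were -0.47, -0.79 and -0.62. The endothelial genes CDH5 and VWF (2 of 4) summed to 66.6 to 95.3 and 99.0 to 133 CPM in liver, and to 79.7 to 151 and 71.4 to 76.9 in muscle. Their estimates were -0.32 and -0.47 in liver and 0.72 and 0.26 in muscle. No fibroblast or endothelial gene named was called in either organ by FDR in edgeR, the lowest FDR being 0.069 for COL1A1 in muscle. The 3 hepatocyte genes summed to 6854 to 8368 CPM in IVP livers and 5902 to 6237 in MOET livers. TTR makes up most of this sum, and the 3 genes did not share a direction, with liver estimates of 1.66 for APOA1, 0.61 for TTR and -0.67 for APOB (FDR 0.12 to 0.13). In muscle they summed to 3.42 to 34.4 CPM in IVP calves and 1.04 to 2.35 in MOET calves, at most 0.58% of the lowest liver value. APOB had 0 counts in each of these muscle libraries and MYH2 and MYH7 had 0 in each of the livers, while no fibroblast or endothelial gene named was at 0. None of these sums overlapped between IVP and MOET calves, whereas that of the muscle fibre genes, most of it ACTA1, did in muscle. How often sums of other genes separate in this way was not computed. Of single genes, 16.3% lay higher in all IVP livers, as did the hepatocyte sum. In muscle 8.66% lay lower in all IVP calves, as did the fibroblast sum. The fibroblast and endothelial sums in liver and the endothelial and hepatocyte sums in muscle separated the opposite way. The shares of all genes in those directions are not given here. Of the muscle fibre genes, the slow myosin MYH7 and the fast myosin MYH2 had muscle estimates of 1.65 (FDR 0.085) and 0.79 (FDR 0.11). Those of TNNT3 and ACTA1 were -0.37 (FDR 0.42) and -0.29 (FDR 0.65). The part of all these markers in the differences of the EIF3 subunits was not tested. No marker of immune cells, red blood cells, adipocytes or bile duct could be named.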

How the data were processed

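Libraries of polyadenylated RNA, not stranded, were sequenced for the liver and muscle of 8 calves. The authors filtered reads with SOAPnuke, mapped them to bosTau9 with STAR (version 2.7), used HTSeq-count for gene counts and then removed the effect of age with sva, by a model not given in the sources used here. The deposited values are therefore estimated counts. The design had assumed counts, and rounding to whole numbers changed no value. Other columns with values per sample numbered 0. Symbols were taken from tables that supplement the paper and name 4180 of 27607 IDs (1 ID with conflicting symbols was left out), and gene overlaps from a RefSeq table of the assembly ARS-UCD2.0. That table served only to find which genes overlap. No sequences or transcript lengths were used here.

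Genes were kept by filterByExpr (minimum count 10, minimum total 15), libraries scaled by TMM and groups compared by the quasi-likelihood test of edgeR (version 4.0.16, R 4.3.3) over all genes, with age in days as covariate (within each organ in fits over 16 libraries) and Benjamini-Hochberg adjustment (FDR). Per-calf values are CPM, and log2 profiles used a prior count of 2. DESeq2 (version 1.42.0), other scalings, no filter, no age term, each calf left out, the family of full siblings and the calf as a block were alternatives. Both organs came from the same animals, so the calf pairs the libraries. The deviations of the organs of a calf from their group means correlated between -0.091 and 0.18 (median 0.097, above 0.1 in 4 of 8 calves). The fits were tested on simulated data. Figures were drawn with Python 3.11.15 and matplotlib 3.10.9.

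Named genes are the 7 subunits, the 5 peripheral subunits, the 5 named genes with the profile most like the mean of the 7, the closest subunit of each, and examples from the lists of initiation factors, COP9, proteasome lid, ribosomal proteins and cell type markers. The rule asked for the largest and smallest fold change of a list, and EIF4G1, EIF2S2 and EIF4EBP1 were added because they passed the test between the organs. The subunits and lists were chosen with earlier results of these data known. Calves were the replicates in the fits within an organ, so those p-values measure the spread between calves. The fits over 16 libraries took the liver and muscle libraries of a calf as separate units, except with the calf as a block. Intervals are 95% intervals from the fits.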

Additional observations from a re-analysis of the deposited data

Results flagged for a closer look

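The 4 IVP calves were tested for a calf far from the rest in 40 sets of values (CPM, level relative to the mean of the 7, and ratio to EIF3A). Of these, 4 held one, and chance gives about 1 in 20 sets. In liver, calf 5841 lay far above the 3 other IVP calves in the CPM of EIF3A (161, against 94.5 to 103). The same calf was low in the liver level of EIF3E relative to the mean of the 7 subunits (0.35 on the log2 scale, against 0.54 to 0.55 in the others) and high in the muscle level of EIF3L relative to that mean (-0.36, against -0.60 to -0.57). In muscle, calf 3208 had 169 counts of EIF3E per 100 of EIF3A, against 127 to 128 in the other IVP calves. EIF3K and EIF3F differed between the organs in their IVP minus MOET effect, by -1.01 (FDR 0.047) and -0.88 (FDR 0.039) in edgeR. Both calls were lost with the calf as a block, with an FDR of 0.070 and 0.066.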

How the results depend on the processing

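The number of subunits called moved with the setting in each of the 4 comparisons, and the cause was not tested. In liver (0 of 7 reported, 5 of all genes) DESeq2 with age called 1 (1475 of all genes), edgeR with no age term 4 (2998), DESeq2 with no age term 5 (4499), and leaving out 1 calf 0 to 3 (1 to 2187). No filter gave 17 genes and the full siblings 19. In muscle (0 of 7, 60 of all genes) these were 0 (443), 1 (1174), 1 (1613) and 0 to 0 (6 to 350), with 186 genes without filter and 21 in the full siblings. For the difference between the organs (2 of 7, 1370 of all genes) DESeq2 called 4 (2586), no age term 4 (4050), leaving out 1 calf 0 to 3 (0 to 2514, the lowest without MOET calf 3218 or 5932, where unadjusted p under 0.05 was found for 3643 and 3467 genes), and library totals 0. Without calf 3217 the count of genes was 1, without 3209 it was 43, without 5833 it was 77 and without 3208 it was 2514. The replicate block, with the calf as the pairing, called 713 genes and 0 subunits there (EIF3F FDR 0.066, EIF3K FDR 0.070) and called all 7 in the comparison of the organs, where library totals called 4.

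Directions turned for small estimates. Liver EIF3L was -0.12 with library totals, -0.019 in the full siblings and -0.0062 without calf 5841 (up to 0.11 with another calf left out). Muscle EIF3E and EIF3H were 0.022 and 0.0090 without calf 3218 (down to -0.21 and -0.21). The organ difference of the effect was 0.083 (library totals) and 0.054 (without calf 5841, down to -0.29 with another left out) for EIF3A and 0.050 (library totals) for EIF3L, and the level of EIF3M in muscle minus liver was -0.073 with library totals. The scaling by library totals was chosen after the data were seen. For the other estimates of the subunits the sign held under the alternatives run. Levels per transcript length, and fold changes by gene length, were not run because no table of lengths was used here. Precision is limited by the calves, 4 IVP and 3 MOET, and the 95% interval of the liver estimate of EIF3K ran from 0.15 to 1.31.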
